A study of Mus musculus with 6 samples.

Results

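The T cell receptor alpha segments comprised 189 of the 47643 genes in the deposited table, chosen by symbol as 128 Trav rows, 60 Traj rows and Trac. They were measured in NKT1 cells, the T-bet-expressing subset of invariant natural killer T (iNKT) cells, which were isolated by flow cytometry from thymi of BALB/c mice of wild-type genotype. Of the 6 libraries of polyadenylated RNA, 3 came from CD4-positive and 3 from CD4-negative cells, and they held 40480468 to 53145898 estimated counts. All groups share strain, genotype and tissue, and neither age, sex nor pooling of animals is given in the sources used here. No source states whether different animals gave the replicates, and a p-value here therefore speaks only of library-to-library spread, possibly technical.

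An alpha chain is made when recombination joins a V segment (Trav) to a J segment (Traj) in a double-positive thymocyte, and splicing then attaches the constant gene Trac. Both alleles of the locus can recombine, so a T cell may transcribe a second alpha gene beside the one it displays. iNKT cells are known for a nearly fixed alpha chain, the join of Trav11 or its copy Trav11d to Traj18, which lets them see lipids on CD1d. The Trav genes carry d or n in their names where a stretch of the locus is repeated, and dv where a delta chain can use the segment as well.

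All 189 rows lie on the plus strand of chromosome 14 (GENCODE M21, GRCm38). Trav11d lies at 52824357 to 52824912 and Trav11 at 53519303 to 53519859, 1375.9 and 680.9 kb upstream of Traj18 (54200777 to 54200842), and Trac at 54220521 to 54224206. Each of the Trav11 genes has a leader exon of 52 bases and a second coding exon. The second exon of Trav11 is shown because the pair holds most of the Trav counts, and the ends of both genes because they decide whether reads can be told apart. The capital marks the base that Trav11 has and the annotated Trav11d lacks. All sequences are of the reference transcripts of GENCODE M21, 5′ to 3′, not of BALB/c reads.
Trav11 exon 2 (chr14:53519569-53519859, plus strand): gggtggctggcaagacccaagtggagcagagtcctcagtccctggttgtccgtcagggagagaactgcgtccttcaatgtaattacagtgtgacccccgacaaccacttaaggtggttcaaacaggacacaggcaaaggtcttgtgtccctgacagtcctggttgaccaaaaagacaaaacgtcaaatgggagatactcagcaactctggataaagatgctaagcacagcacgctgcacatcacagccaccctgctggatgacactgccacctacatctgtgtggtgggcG
Trav11 last bases (chr14:53519817-53519859, plus strand): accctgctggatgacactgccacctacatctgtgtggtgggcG
Trav11d last bases (chr14:52824871-52824912, plus strand): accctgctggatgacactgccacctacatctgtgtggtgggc
The 342 bases of the Trav11d transcript are identical to the first 342 of the 343 bases of Trav11. The pair was therefore summed, as the definition of the gene group asks. The pseudogene Trav11n is 97.7% identical to Trav11 and had 0 counts in all 6 libraries.

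Trav11 and Trav11d together dominated the Trav counts of every library. In CD4-positive replicates 1, 2 and 3 they held 6308, 9248 and 8920 counts, which is 78.6%, 82.4% and 78.8% of all Trav counts. In CD4-negative replicates 1, 2 and 3 they held 6518, 7754 and 5820 counts, or 78.6%, 81.4% and 83.5%. The groups overlapped, and the lowest share of each group was the same to 1 decimal. The 95% Wilson intervals, which cover counting error only, ran from 77.7% to 79.5% in CD4-positive replicate 1 and from 81.7% to 83.1% in CD4-positive replicate 2. They ran from 77.7% to 79.5% in CD4-negative replicate 1 and from 82.6% to 84.4% in CD4-negative replicate 3. Within each group the intervals of these libraries did not overlap.

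The mean share was 79.9% ± 2.13 in CD4-positive and 81.2% ± 2.47 in CD4-negative libraries (SD, n = 3). The difference of -1.23 percentage points was smaller than the spread within either group (exact permutation test over libraries, two-sided, p = 0.70, where 3 against 3 cannot go below 0.10). Without CD4-negative replicate 3 the difference was -0.06 points. That library stood apart from the others, with counts for 13804 genes against 15320 to 16319. Replicate 3 of both groups also has library names of another pattern than replicates 1 and 2, and no label says what the pattern marks. Among replicates 1 and 2 the difference was 0.516 points, and between the replicates 3 it was -4.73 points, so the direction did not hold within the naming patterns. This share was one of 15 measures per library compared by the exact test. The smallest p among the 15 was 0.20, and the smallest after Benjamini-Hochberg adjustment was 0.857.

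**Figure D1:**
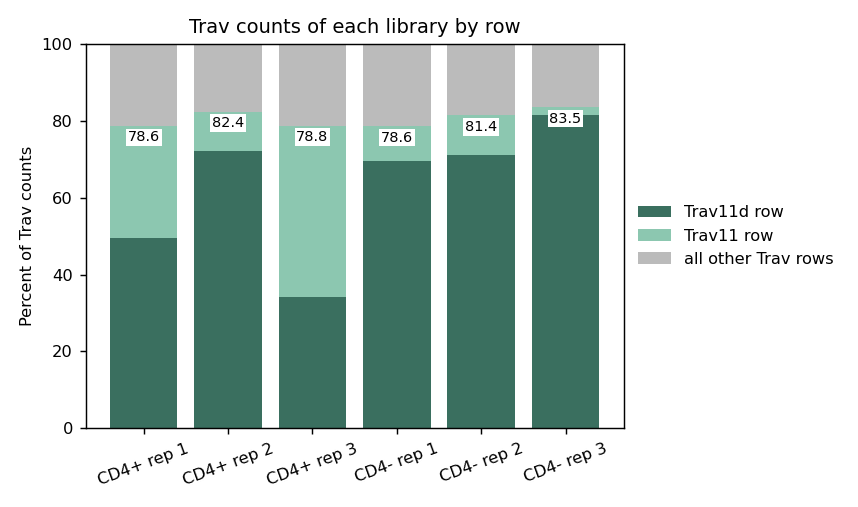
Percent of the Trav counts of each library (vertical axis, stacked to 100) in the Trav11d row, the Trav11 row and all other Trav rows, with the sum of the first 2 printed on the bar. The sum stays between 78.6 and 83.5 while the border between the Trav11d and Trav11 rows moves from library to library.

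The deposited estimates divided the pair very differently between libraries. The Trav11 row took 36.9%, 12.6% and 56.8% of the pair in CD4-positive replicates 1, 2 and 3. In CD4-negative replicates 1, 2 and 3 it took 11.5%, 12.7% and 2.44%. The groups overlapped (exact permutation test, p = 0.20). In every library the fractional counts of the rows added up to a whole number, within 1e-06 of a count. With 342 of 343 annotated bases in common, these rows do not show which of the genes was transcribed.

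As a level, the pair stood at 130, 178 and 172 TMM-scaled CPM (counts scaled to library size) in CD4-positive replicates 1, 2 and 3. It stood at 140, 143 and 152 CPM in CD4-negative replicates 1, 2 and 3. The groups overlapped, since CD4-positive replicate 1 was the lowest and the other CD4-positive libraries the highest of the 6. The group means were 160 ± 26.4 and 145 ± 6.01 CPM (log2 difference, CD4-positive minus CD4-negative, 0.14, SE 0.17, adjusted p = 0.99999 by edgeR's quasi-likelihood test). In bulk RNA, fewer cells with the segment and less RNA per cell cannot be told apart.

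Trac, the constant gene to which every alpha V and J is spliced, stood at 721, 797 and 732 CPM in CD4-positive replicates 1, 2 and 3. It stood at 720, 680 and 718 CPM in the CD4-negative replicates. The groups just failed to overlap on this scale, and overlapped when CPM were taken from plain library totals. The means of 750 ± 40.7 and 706 ± 22.7 CPM differed by 0.09 on the log2 scale (SE 0.15, adjusted p = 0.99999 by edgeR), and the CD4-positive libraries were higher by 59.1 CPM among replicates 1 and 2 and by 14.6 CPM between the replicates 3. In CPM per kilobase of annotated exon, Trac was at 809 ± 56.3 and 749 ± 28.5 and the Trav11 pair at 471 ± 85.7 and 420 ± 5.44, so that on this scale the pair had the lower level in both groups. For every 100 counts of Trac the pair had 21.3 ± 2.91 counts in CD4-positive and 20.6 ± 0.964 in CD4-negative libraries (exact permutation test, p = 0.80). The values per kilobase use annotated lengths of 935 bases for Trac and 343 for the pair, and not the shorter lengths over which fragments can fall.

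**Figure D2:**
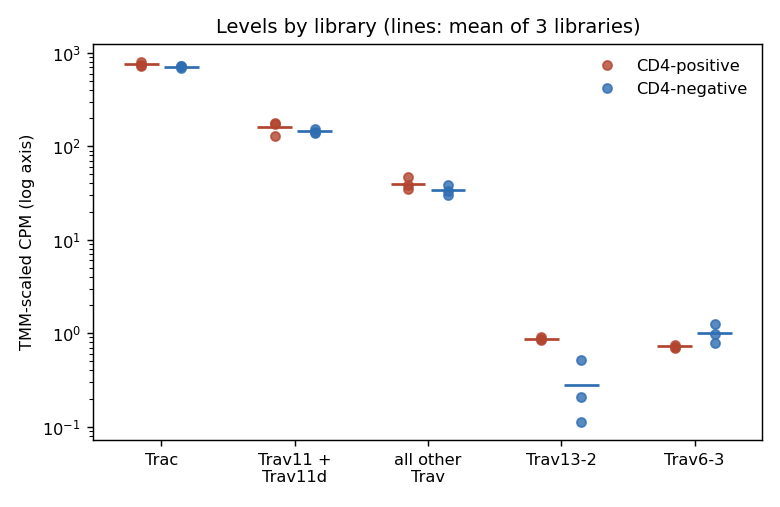
TMM-scaled CPM on a log axis for Trac, the sum of Trav11 and Trav11d, the sum of all other Trav rows, Trav13-2 and Trav6-3, with a point for each library and a line at the mean of 3. Trac lies at 680 to 797 CPM and the Trav11 pair at 130 to 178 CPM in both groups, whereas the single other segments lie near or below 1 CPM.

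The Traj rows could not be used to describe the J side of the chain. Traj18 had 0 counts in all 6 libraries, and so had Traj33, the J segment of mucosal-associated invariant T (MAIT) cells. Of the 60 Traj rows 57 had no count, the neighbours Traj21, Traj20, Traj19, Traj17 and Traj16 among them. The 5 counts of the other rows were 3 for Traj15 in CD4-positive replicate 2, 1 for Traj2 in CD4-positive replicate 1 and 1 for Traj12 in CD4-negative replicate 2. These 3 segments are among the 16 Traj rows that lie between Traj18 and Trac, and none of the 43 rows upstream of Traj18 had a count. With 5 counts, 3 of them in a single row, no share or test was made from this.

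Traj18 is shown because it is the J segment of the invariant chain and its row is only 66 bases long, and the conserved J motif is in capitals.
Traj18 (chr14:54200777-54200842, plus strand): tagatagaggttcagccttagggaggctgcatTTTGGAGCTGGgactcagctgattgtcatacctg
The motif encodes phenylalanine-glycine-X-glycine, the turn shared by J segments, and was searched with either phenylalanine codon. It was found on the coding strand in 42 of 51 functional Traj rows (82.4%), 43 of all 60, and on the other strand in 0. Traj rows are 29 to 72 bases long, with a median of 61, and Trav rows 155 to 595 bases. Of the 962 other genes in the table with at most 75 annotated bases, 7 (0.728%) had a count, and none reached 100 counts. Among 3330 other genes of over 300 and up to 450 bases 583 (17.5%) had a count. The 34 J rows of the other antigen receptor loci had 0 counts in all. No upper limit for Traj18 transcripts is given here from a count of 0 in a row this short.

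The other Trav rows together made up 21.4%, 17.6% and 21.2% of Trav counts in CD4-positive replicates 1, 2 and 3. They made up 21.4%, 18.6% and 16.5% in the CD4-negative replicates. These counts were spread thinly, and 101 of the 126 rows had a count in some library. The 25 Trav rows without any count included 16 of the 20 V pseudogenes. Per 100 counts of Trac the other Trav rows had 5.33 ± 0.864 counts in CD4-positive and 4.77 ± 0.564 in CD4-negative libraries (exact permutation test, p = 0.50). The largest single row took between 4.74% and 10.9% of them. That row was Trav7-4 in CD4-positive replicate 1, Trav3-3 in CD4-negative replicates 1 and 2, and Trav8d-1 in the other libraries.

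Trav8d-1 (chromosome 14, 52778447 to 52778995) was on average the most abundant segment after the pair. It had 1.44, 2.31 and 2.51 CPM in CD4-positive and 1.55, 1.39 and 3.26 CPM in CD4-negative replicates 1, 2 and 3. The groups overlapped fully, with the highest value in CD4-negative replicate 3. Trav3-3 (53665929 to 53666506) had 1.83, 2.10 and 2.51 CPM against 1.81, 2.20 and 1.38 CPM. Trav7-4 (53461099 to 53461738) had 2.55, 1.79 and 1.04 CPM against 1.64, 1.65 and 0.600 CPM. Both overlapped between the groups, and each was lowest in CD4-negative replicate 3. Trav10d, Trav6-6, Trav6d-6, Trav6-4 and Trav7d-4 followed, at 0.589%, 0.579%, 0.579%, 0.555% and 0.533% of Trav counts on average.

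Many of these rows share their sequence. Of the 128 Trav transcripts 42 form 21 pairs in which both are identical or one is contained in the other. Of the 17 identical pairs 15 had counts, and in all 15 the deposited estimates were equal within 0.015 counts in every library, as for Trav6-6 with Trav6d-6. Pairs other than Trav11 with Trav11d held 26.3% of the other Trav counts. Rows with d or n in their names, which include rows that can be told apart, held 47.7% ± 2.34 of the other Trav counts in CD4-positive and 50.5% ± 2.63 in CD4-negative libraries. Segments with dv in their names, 10 rows that all had counts, held 8.02% ± 1.01 and 8.93% ± 1.998.

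Along the locus the other Trav counts lay mostly in its middle. The 51 rows that lie 500 to 1000 kb upstream of Trac held 46.7% to 55.3% in CD4-positive libraries, and 52.4%, 55.6% and 38.6% in CD4-negative replicates 1, 2 and 3. The 50 rows at 1000 to 1500 kb held 33.9% to 41.0%, and 47.9% in CD4-negative replicate 3. The 10 rows beyond 1500 kb, which include Trav1 and Trav2, held 6.04% to 10.3%, and the 15 rows within 500 kb held 2.02% to 4.79%. Copies with identical transcripts can lie 1 in each of the middle stretches, as do Trav6-6 and Trav6d-6.

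**Figure D3:**
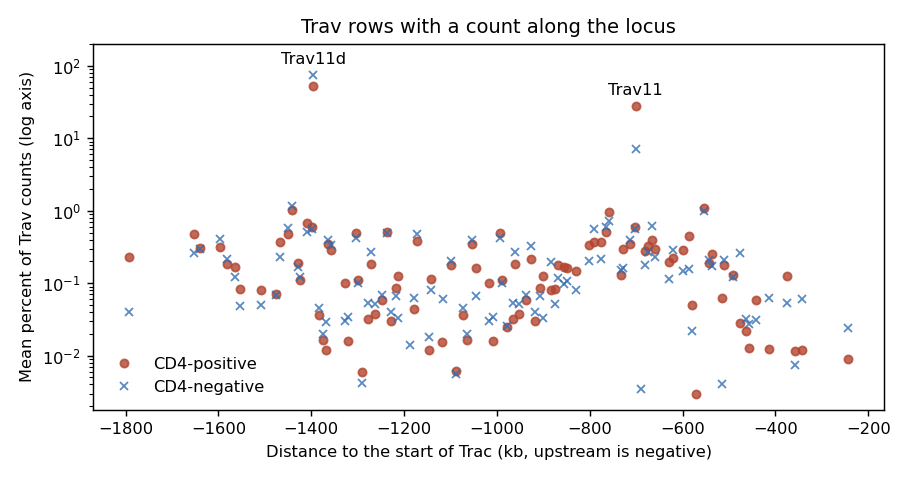
Mean percent of Trav counts (log axis) of each Trav row with a count against its distance to the start of Trac in kb, for CD4-positive (circles) and CD4-negative libraries (crosses), with rows at 0 in a group left out for that group. Trav11d and Trav11 lie far above all other rows, of which the highest mean shares are near 1%.

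Grouped by family number, Trav6 was the largest of the other families, with 16.3% to 20.1% of the other Trav counts in CD4-positive and 16.0% to 20.1% in CD4-negative libraries. Trav7 and Trav14 followed, with means over all libraries of 10.5% and 10.3%, then Trav9 with 9.29% and Trav3 with 7.85%. Trav14 had 7.06%, 7.44% and 11.99% in CD4-positive and 11.1%, 10.8% and 13.3% in CD4-negative replicates. Trav12 had 8.93%, 8.05% and 7.33% in CD4-positive and 8.51%, 9.32% and 0.783% in CD4-negative replicates. Trav14 overlapped between the groups through CD4-positive replicate 3. Trav12 was even across libraries except for CD4-negative replicate 3. Of the 22 families besides Trav11, only Trav1 had groups that did not overlap in this share. By CPM, 9.42% of all rows tested with the families summed had such groups.

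**Figure D4:**
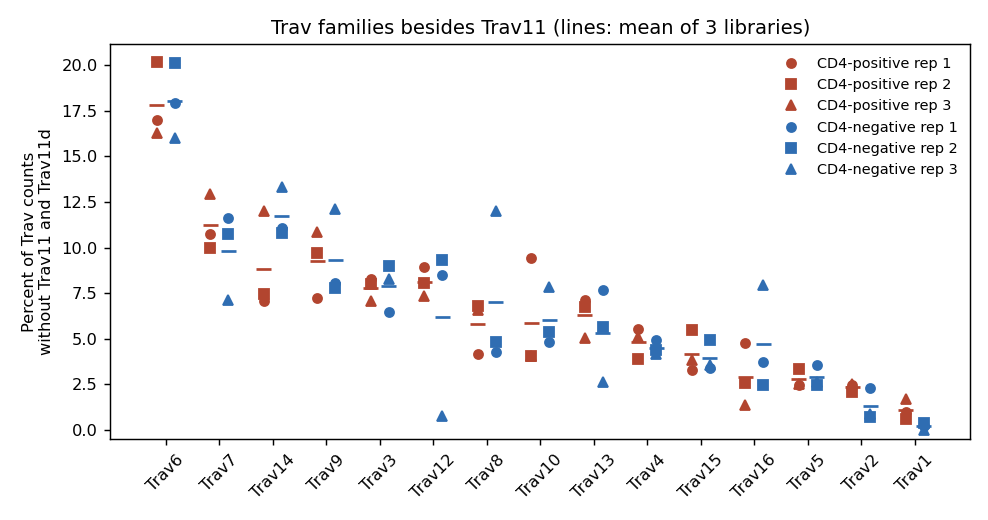
Percent of the Trav counts without Trav11 and Trav11d (vertical axis) in each of the 15 largest other families, with a point for each library and a line at the mean of 3. Trav6 leads in both groups at 16.0% to 20.1%, and the triangles of CD4-negative replicate 3 lie apart for Trav12, Trav8 and Trav16.

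The other Trav rows had similar diversity in 5 of the 6 libraries. The effective number of segments, the exponential of the Shannon entropy of their shares, was 52.0, 55.9 and 55.3 in CD4-positive replicates 1, 2 and 3. It was 60.6, 55.4 and 34.9 in CD4-negative replicates 1, 2 and 3. CD4-negative replicate 3 was the lowest, and CD4-negative replicate 1 the highest. Copies that share reads count as separate segments here, which raises the number. With d and n copies summed it was 33.0, 34.2 and 34.5 in CD4-positive and 35.3, 31.0 and 23.2 in CD4-negative replicates 1, 2 and 3 (exact permutation test, p = 0.40). With copies kept apart, the difference of 4.09 was within the spread (exact permutation test, p = 0.90), and it was -3.63 without CD4-negative replicate 3. It was -4.09 among replicates 1 and 2 and 20.5 between the replicates 3, which carry the other library names. That library had counts in 49 of the other Trav rows, against 80 to 92 in the others, or 78.4 to 89.8 when each was reduced to 1148 counts. Over 54 segments with copies summed, log2 shares (percent plus 0.1) correlated at 0.742 to 0.897 between the other libraries and at 0.565 to 0.629 with this one (Pearson's r over segments, a description, since shares within a library depend on each other).

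In the fit across all genes 53 rows of the alpha locus had enough counts to be tested, namely Trac, the summed pair and 51 other Trav rows. None passed an adjusted p of 0.05, where 0.212% of all 12759 tested genes did. At an unadjusted p under 0.05 there were 2 members, Trav1 and Trav13-2, where 4.44% of all genes passed. DESeq2 called 0 members, where it called 0.835% of all genes with a count, and had 3 of 106 members with a count at an unadjusted p under 0.05, as were 762 of all 19409 genes. Of the 53 rows 4 had groups that did not overlap, where 9.4% of all genes had. Of these, 3 were higher in CD4-positive libraries (4.83% of all genes) and 1 was lower (4.57%). Of the 51 other Trav rows 34 were above 0, with log2 differences of -1.16 to 2.57 and a median of 0.24, while the median over all genes was -0.01. Copies that share reads count more than once here. CD4-negative replicate 3 had counts in only 49 of the other Trav rows. Tested rows above 0 such as Trav13-1, Trav12-1 and Trav7-3 had no count in it, and of those below 0 only Trav9n-4. The filter on low counts asks for enough counts in at least 3 libraries. Rows at 0 in CD4-negative replicate 3 could therefore not pass it on CD4-negative values alone. Which rows were tested, and so the number above 0, is partly set by that filter. How far the excess of rows above 0 rests on that library or on the filter was not tested.

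**Figure D5:**
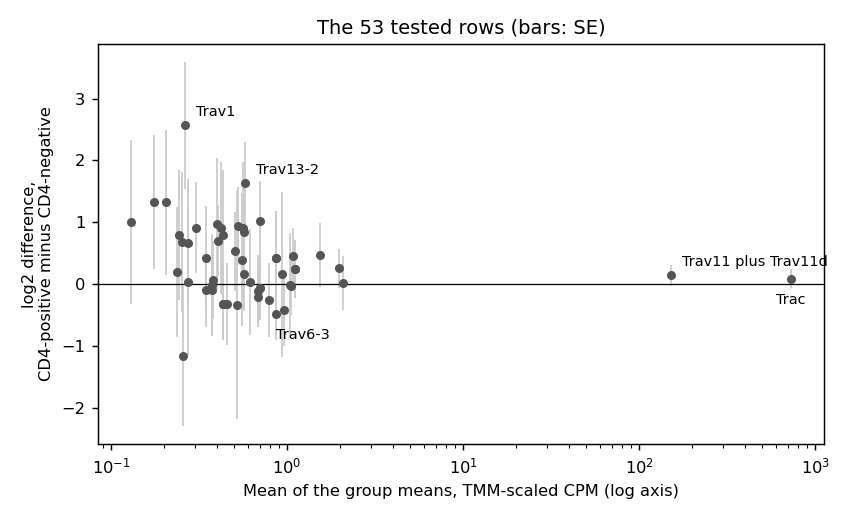
The log2 difference, CD4-positive minus CD4-negative, of the 53 tested rows with its SE, against the mean level on a log axis. Trac and the Trav11 pair lie close to 0 with short bars, and the other segments, at far lower levels, scatter from -1.16 to 2.57 with long bars.

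Trav1, which encodes the V segment of the MAIT cell receptor, had the largest difference among the tested rows. It stood at 0.350, 0.231 and 0.791 CPM in CD4-positive and at 0.0861, 0.130 and 0 CPM in CD4-negative replicates 1, 2 and 3. The groups did not overlap, but these values rest on 17, 12 and 41 against 4, 7 and 0 counts. A count of 0 in CD4-negative replicate 3 allows up to 0.0741 CPM, taken from the plain library total and not TMM-scaled. The log2 difference was 2.57 (SE 1.02, adjusted p = 0.99999 by edgeR). Trav1 passed the filter on low counts through its CD4-positive values only, so its rank among tested rows is partly set by that filter.

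Trav13-2 was even in CD4-positive libraries, at 0.905, 0.848 and 0.868 CPM, and lower in CD4-negative replicates 1, 2 and 3, at 0.516, 0.111 and 0.209 CPM (log2 difference 1.64, SE 0.66, adjusted p = 0.99999 by edgeR). These values rest on 44, 44 and 45.35 against 24, 6 and 8 counts. The CD4-negative values of Trav13-2 alone would not have passed the filter on low counts, so its rank is partly set by that filter as well. Trav6-3 was the only tested member with higher values in all CD4-negative libraries, at 0.699, 0.713 and 0.752 CPM against 1.25, 0.777 and 0.992 CPM (log2 difference -0.48, SE 0.43). Neither passed the test over all genes.

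Conventional double-positive thymocytes also transcribe Trav segments, and their markers varied between libraries. All 8 listed markers had counts in some library, and 7 could be tested, of which none passed, where 0.212% of all tested genes did. Of these 7 only Rag1 was above 0, and the median log2 difference was -0.67. The summed level of all 8 was 75.9, 26.6 and 141 CPM in CD4-positive and 101, 43.5 and 215 CPM in CD4-negative replicates 1, 2 and 3. In the same order the other Trav rows held 21.4%, 17.6%, 21.2%, 21.4%, 18.6% and 16.5% of Trav counts. CD4-positive replicate 2 and CD4-negative replicate 2 had the lowest marker levels and, CD4-negative replicate 3 apart, the lowest shares. CD4-negative replicate 3 had the highest marker level and the lowest share. Most of the summed marker level came from Cd8a, at 9.77 to 75.8 CPM, and Cd8b1, at 11.7 to 83.7 CPM. Rag1 stood at 2.88, 3.07 and 44.8 CPM and at 7.12, 2.13 and 15.6 CPM. Dntt, which adds bases at the joins, stood at 4.44, 0.848 and 12.8 CPM and at 2.88, 1.37 and 27.1 CPM. Rag2 was at 0.0740 to 4.65 CPM and Ptcra, the pre-T alpha chain, at 0 to 0.992 CPM. The part of such cells in the Trav counts was not tested.

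The iNKT marker Zbtb16 and the NKT1 markers Tbx21 and Il2rb were well detected, at 60.04 to 150.8, 297 to 639 and 1272 to 2280 CPM. Cd4, the sort marker, was at 401 to 508 CPM in CD4-positive and 10.9 to 41.2 CPM in CD4-negative libraries. Summed over each list, B cell markers were at 0 to 0.226 CPM with Pax5 at 0, and NKT17 markers at 0 to 0.796 CPM. Myeloid markers summed to 89.7 to 173 CPM, nearly all from Cst3, with Lyz2 at 0.235 to 0.904 CPM and Cd14 at 0 in all libraries but CD4-positive replicate 1 (0.0206 CPM). Gamma-delta T cell markers summed to 145 to 188 CPM, nearly all from the constant gene Tcrg-C1. Besides Cd4, the markers Zbtb16 (106 ± 41.0 against 61.9 ± 1.81 CPM) and Sox13 (8.79 ± 2.01 against 1.80 ± 0.836 CPM) did not overlap between the groups, and neither passed the adjusted test. Of all tested genes, 9.4% had groups that did not overlap. The part of other cells in the Trav rows was not tested.

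None of the listed partner genes of the alpha chain passed the test, where 0.212% of all 12759 tested genes did. At so low a share, 0 in lists this short says little. In the list of the receptor complex 0 of 7 tested members passed (2 above 0, median log2 difference -0.03). The signalling chain Cd247 stood at 216 ± 29.8 and 189 ± 36.4 CPM in CD4-positive and CD4-negative libraries. The beta constant gene Trbc1 was at 350 ± 112 and 397 ± 130 CPM, and its division from the near-identical Trbc2 is uncertain. In the gamma and delta list 0 of 6 tested members passed. Tcrg-C4 was at 167 ± 16.1 and 148 ± 31.6 CPM and Tcrg-C2 at 278 ± 3.43 and 303 ± 38.4 CPM, while Trdc, the delta constant gene that lies between the Trav and Traj arrays, was at 1.25 to 3.003 CPM.

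None of the 14 tested recombination genes passed, with 9 above 0 and a median of 0.07. Over all tested genes 0.212% passed and the median was -0.01. Rag1 and the DNA-bending cofactor Hmgb2 (255 ± 36.2 and 226 ± 47.5 CPM) had the smallest p among them. The list of 16 regulators of the alpha locus also holds Bcl2l1, a survival gene rather than a regulator of the locus. None of the 16 passed, with 11 above 0 and a median of 0.12. Groups did not overlap for 3 of them, where 9.4% of all tested genes had such groups. Myb, which in mice is needed for iNKT development, was at 7.62 ± 2.76 against 2.73 ± 1.38 CPM (adjusted p = 0.596 by edgeR). Runx1, which binds the alpha enhancer, was at 23.2 ± 1.59 against 14.1 ± 3.75 CPM (adjusted p = 0.692 by edgeR). Ets1, named after its values were seen, was the other regulator without overlap, at 1415 ± 149.6 against 1097 ± 185 CPM.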

How the data were processed

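Per the submitters' processing notes, reads were processed with STAR, Picard and RSEM on mm10, without versions; the labels' protocols name a stranded mRNA kit and paired-end sequencing. The authors deposited estimated counts per gene, which need not be whole numbers. For the annotation and strand setting of the counting, the sources used here give nothing. Coordinates, lengths and transcripts were taken from GENCODE M21 (GRCm38, the C57BL/6J reference), in which all 189 rows matched by gene identifier and had the same symbol. The effect of strain differences from BALB/c on the counts was not tested.

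Shares were taken of the estimated counts of each library. For the fit, Trav11 and Trav11d were summed, counts were rounded, and edgeR 4.0.16 (R 4.3.3; filterByExpr, TMM, robust quasi-likelihood test, Benjamini-Hochberg over all 12759 genes tested, threshold 0.05) compared 3 with 3 libraries. DESeq2 1.42.0 was an alternative, and the steps were tested on simulated data. Single values were compared by the exact permutation test (scipy 1.17.1). Library totals set the counting floor: 3 counts were 0.0564 to 0.0741 CPM. Every pair of libraries within a group differed beyond sampling noise (chi-square per degree of freedom at least 55.55).

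Named were Trac, the Trav11 pair, Traj18 with its neighbours, Trav1, Traj33, the 8 other Trav and Traj segments of highest share where counted, up to 5 members a direction with groups that did not overlap, Rag1, Rag2, Dntt, Ptcra and Trdc, and in each list the called genes or else those 2 with the smallest p. The members and lists were chosen with earlier results of these data known. Alternatives were scaling, filter, tool, library naming (replicates 3 carry names of another pattern), replicate block, rows counted, and each library left out. The marker list of conventional or recirculating T cells is not reported here.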

Additional observations from a re-analysis of the deposited data

How the results depend on the processing

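Leaving out each library in turn moved the difference in the Trav11 pair's share from -2.52 to -0.06 percentage points, and that in the effective number of other Trav segments from -3.63 to 9.26. The lowest of these, -3.63, came without CD4-negative replicate 3 and turned the direction. The Trac difference ranged from 0.04 to 0.12 on the log2 scale. Counting only functional or better covered segments, rounding, or dividing by length kept the direction of the share, as did such alternatives for the effective number. All 14 alternatives of the fit called 0 members, with 0 to 3 at an unadjusted p under 0.05, and the 12 run for the listed genes called 0 of those. Over all genes, however, 27 were called in the reported fit, 0 with the replicate block and 0 without any one library other than CD4-negative replicate 3, so that 0 members says nothing about stability in these fits. Without that library 44 genes were called, with library naming as a term 11, without a filter on low counts 67, and by DESeq2 162 or, on the filtered genes, 186. Summing Trav rows to families, DESeq2 on the filtered genes and the differences within naming patterns were chosen after seeing the data. Library names match between the groups at each replicate number, and no label states a pairing. Deviations from the group means correlated at -0.08, 0.34 and 0.04 between same-number libraries, and at -0.35 to 0.25 between the others. With groups of 3 this cannot exclude a pairing. With the replicate numbers as a block, the share difference was -1.23, the effective number 4.09, the Trac difference 0.09 and the members called 0. Library naming as a term gave a Trac difference of 0.09 and 0 members called. Shares of Traj18 and of the Traj rows beyond it, with their alternatives, were not run, since 3 libraries had no Traj count. Other Trav segments rested on 1149 to 2403 counts a library, which limits their precision.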
